A study of Mus musculus with 38 samples.

Results

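The nuclei described here are cortical excitatory neurons of the mouse that carried transcripts of Chst8, Trpc7 and Npr3, 258 of the 14296 nuclei in 4 single-nucleus RNA-seq libraries. They were chosen on their own UMIs (unique molecular identifiers, which count captured RNA molecules). A nucleus was taken when Slc17a7 and Neurod6, genes of cortical excitatory neurons, together had at least 3 UMIs and more than Gad1 and Gad2 of inhibitory neurons, when Chst8, Trpc7 and Npr3 together had at least 3 UMIs, and when Otof and Ccbe1, genes of upper-layer neurons, together had fewer than 3. These nuclei are called Chst8/Trpc7/Npr3 nuclei here. Since the choice used measured values, the levels of these genes and the differences between the chosen nuclei and other nuclei are descriptions without a test.

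The libraries were prepared from cortical tissue of 4 mice aged 3 months, 1 library per animal. In Trim28-KO animals 60 and 73 (Emx1-Cre +/-; Trim28-fl +/+) both Trim28 alleles were open to excision, and in control animals 64 and 65 (Emx1-Cre +/-; Trim28-fl +/-) 1 allele was, so the controls also carry Cre and a single floxed allele. The sires of the cross carried a gtRosa reporter allele, and the reporter genotype of each animal was not given in the sources used here. The paper's methods describe the animals for immunohistochemistry as heterozygous for this allele. Emx1-Cre acts in the progenitors of cortical excitatory neurons and of much of the cortical glia, but not in the lineage of cortical interneurons, and every cell of an animal otherwise shares its genotype. Values per animal are given in the order control 64, control 65, Trim28-KO 60 and Trim28-KO 73.

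Excitatory neurons of layer 5 that send axons out of the cortex to the brainstem and spinal cord, the extratelencephalic neurons, are large cells with a thick apical dendrite. The transcription factors Fezf2 and Bcl11b (Ctip2) set up and keep this identity. Trim28 is a co-repressor that KRAB zinc-finger proteins bring to transposable elements, where it recruits histone methylation and keeps the elements and nearby genes silent. Of the selecting genes, Chst8 encodes a sulfotransferase that acts on N-acetylgalactosamine of glycans, Trpc7 a cation channel of the TRPC family, and Npr3 the natriuretic peptide clearance receptor.

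The 4 libraries held 3130 to 3871 nuclei with a median of 7753 to 8390 UMIs, and 29.0% and 31.7% of control nuclei and 39.4% and 40.2% of Trim28-KO nuclei passed the excitatory gate. No Chst8/Trpc7/Npr3 nucleus carried a cell barcode found in another library (36 barcodes were shared in all). A doublet caller was not run. Trim28 itself had 2, 7, 11 and 7 UMIs in the Chst8/Trpc7/Npr3 nuclei, too few for a test, and 9.38, 8.48, 8.00 and 7.70 CPM over all nuclei, where CPM are UMIs scaled to the same total in every sum. In bulk RNA of the cortex it fell from 20.8, 19.0 and 21.4 CPM in controls to 6.07, 8.52 and 8.86 CPM in Trim28-KO animals (log2 fold change -1.39, SE 0.15, adjusted p = 0.000378). Tags from the 3′ end of a transcript need not lie in the excised exons, so the nuclei give no check of the deletion.

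The Chst8/Trpc7/Npr3 nuclei were a small share of the excitatory nuclei in both genotypes. There were 40 of 1013 excitatory nuclei in control 64 (3.95%, exact 95% binomial interval 2.84 to 5.34%), 51 of 993 in control 65 (5.14%, 3.85 to 6.70%), 96 of 1496 in Trim28-KO 60 (6.42%, 5.23 to 7.78%) and 71 of 1556 in Trim28-KO 73 (4.56%, 3.58 to 5.72%). The share of Trim28-KO 73 lay between those of the controls, and the mean share was 0.948 percentage points higher in Trim28-KO (two-sided exact permutation test, p = 0.667). With 2 animals in each genotype, the smallest p this test can give is 0.333. These intervals, like all intervals here, cover counting error only.

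A chosen nucleus held more RNA than other excitatory nuclei. The median was 18860.5, 17158, 18009.5 and 17944 UMIs in the Chst8/Trpc7/Npr3 nuclei and 12795, 12449.5, 11571 and 11085 UMIs in the other excitatory nuclei. The genotypes lay side by side, with a mean of the medians 32.5 UMIs lower in Trim28-KO (exact permutation p = 1). A threshold in UMIs picks deeply sequenced nuclei more easily, so every excitatory nucleus with at least 9337 UMIs was also thinned to 9337 UMIs and the rule applied again. Of 824, 767, 1111 and 1092 such nuclei, 18, 19, 46 and 39 were then chosen (2.18, 2.48, 4.14 and 3.57%), and before thinning these had a median of 16636.5, 15286, 17342 and 16597 UMIs, against 14159.5, 14585.5, 13156 and 12758 in the rest. The thinned shares of the Trim28-KO animals were both above those of the controls (difference 1.53 percentage points, exact permutation p = 0.333, the smallest possible).

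**Figure D1:**
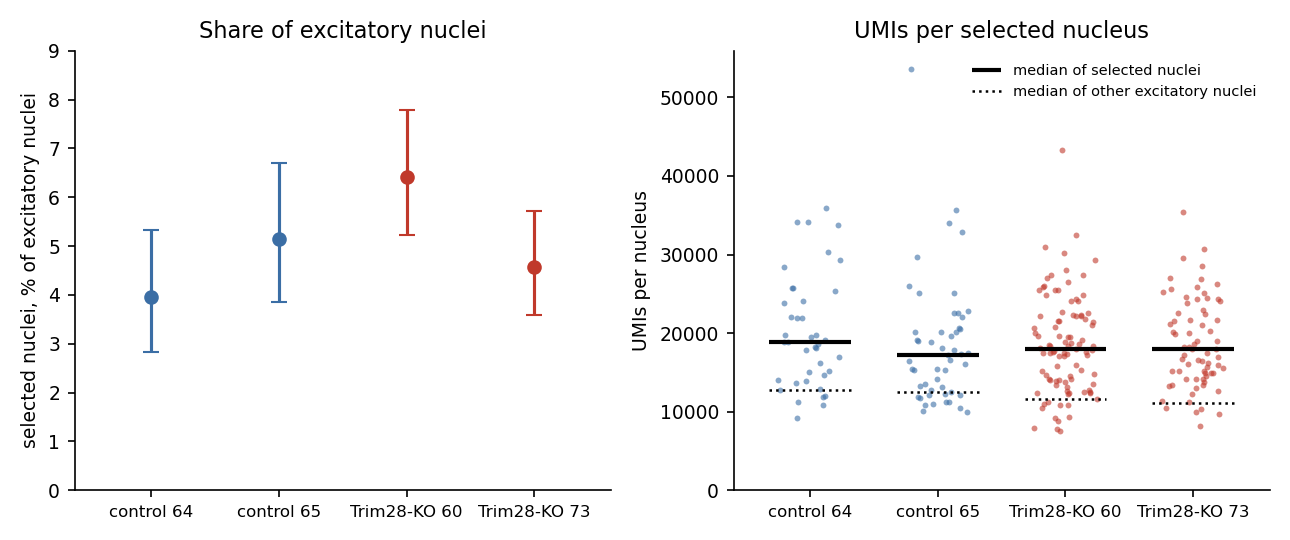
Left, Chst8/Trpc7/Npr3 nuclei as a percentage of excitatory nuclei in each animal, with exact 95% binomial intervals, and right, UMIs of each chosen nucleus as points, with the median of the chosen nuclei (solid line) and of the other excitatory nuclei (dotted line). The shares run from 3.95 to 6.42% with the genotypes overlapping, and in all 4 animals the median of the chosen nuclei lies above that of the other excitatory nuclei.

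Chst8 and Npr3 supplied most of the selecting UMIs and Trpc7 few. Chst8 was at 119, 94.4, 164 and 164 CPM in the chosen nuclei against 10.4 to 13.6 CPM in other excitatory nuclei. Npr3 was at 103, 103, 94.4 and 109 CPM, against 10.5, 13.3, 6.70 and 6.43 CPM in other excitatory nuclei. There it was lower in Trim28-KO (log2 fold change -0.90, adjusted p = 0.025), and the part of this in the choice of nuclei was not tested. Trpc7 was at 17.4, 30.7, 19.7 and 33.2 CPM in the chosen nuclei. A Chst8 UMI was found in 82.5, 70.6, 94.8 and 88.7% of the chosen nuclei, an Npr3 UMI in 75, 70.6, 70.8 and 76.1%, and a Trpc7 UMI in 22.5, 27.5, 18.8 and 31.0%. Only 6, 7, 11 and 15 nuclei held all 3 genes. Trpc7 UMIs were also in 12.1 to 13.2% of the inhibitory nuclei, of which 1 of 273, 6 of 281, 0 of 340 and 3 of 363 would have met the limit of 3 UMIs. A further 5, 8, 9 and 3 excitatory nuclei reached it and were left out for Otof and Ccbe1.

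The fourth marker of this cell type, the long noncoding RNA Gm6260, was not used for the choice. It was at 57.1, 58.3, 32.6 and 34.7 CPM in the chosen nuclei, and its UMIs were found in 25.4 to 37.3% of them and in 1.75 to 5.65% of other excitatory nuclei. Both Trim28-KO animals were below both controls (log2 fold change -0.81, SE 0.24, adjusted p = 0.0525, not called, against -1.33 and adjusted p = 0.0271 in the nuclei with Fezf2 or Bcl11b, a subset described further on). The fall was not limited to the chosen nuclei. In other excitatory nuclei Gm6260 was at 7.24, 5.56, 2.33 and 1.59 CPM and called lower (-1.75, adjusted p = 0.00909). It was called lower in upper-layer nuclei too (defined further on, -2.73, adjusted p = 0.0237).

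How close the nuclei sat to the threshold differed between the genotypes, and so did what else they expressed. A sum of exactly 3 selecting UMIs was seen in 17 of 40 and 28 of 51 control nuclei and in 31 of 96 and 19 of 71 Trim28-KO nuclei, and a sum of 6 or more in 11, 12, 35 and 26 nuclei. Just inside the threshold, at a sum of 3, Bcl11b was at 105, 117, 224 and 166 CPM and Rorb, a transcription factor of layer 4 and of layer 5 neurons that project within the forebrain, at 446, 154, 87.4 and 98.0 CPM. Just outside it, at a sum of 2, Bcl11b was at 87.6, 94.2, 108 and 51.9 CPM and Rorb at 340, 481, 137 and 167 CPM. On both sides of the threshold Rorb was higher in both controls than in both Trim28-KO animals.

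Markers of layer 5 extratelencephalic neurons were higher in the chosen nuclei than in other excitatory nuclei in every animal. Bcl11b was at 248, 184, 292 and 272 CPM against 38.7, 55.0, 39.5 and 19.5 CPM in other excitatory nuclei, and Parm1 at 148, 156, 83.2 and 121 CPM against 9.73 to 15.5 CPM. In deep-layer Foxp2 nuclei (defined further on) Bcl11b was at 139, 228, 280 and 238 CPM and Parm1 at 7.01 to 19.5 CPM. For Bcl11b this was well below the chosen nuclei in control 64, close to them in both Trim28-KO animals and above them in control 65. Neither gene is limited to these neurons, since 64.5 to 68.7% of inhibitory nuclei had a Bcl11b UMI and 55.9 to 57.9% a Parm1 UMI. Fezf2 was at 27.3, 26.5, 59.6 and 61.0 CPM. For each gene at a mean of 50 CPM or more, the ratio to other excitatory nuclei was taken in each animal (1 CPM added to both) and the smallest of the 4 kept. The 15 genes with the highest such ratio were Chst8, Npr3, Gm27247, Parm1, Tcerg1l, Nkain3, Bcl6, Rhbdl3, Bcl11b, Rab3c, Lpp, RP24-134N2.1, Tmem163, Coro6 and Pcsk5. Bcl6, a transcriptional repressor, varied between the controls, at 13.7 and 54.1 CPM, and was at 60.7 and 94.9 CPM in Trim28-KO. The summed level of the 12 detected markers of the extratelencephalic list was 584, 630, 721 and 818 CPM in the chosen nuclei and 102 to 142 CPM in other excitatory nuclei.

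Not every chosen nucleus showed the defining factors. At least 1 Fezf2 UMI or 3 Bcl11b UMIs were found in 20 of 40 nuclei of control 64 (50%), 30 of 51 of control 65 (58.8%), 76 of 96 of Trim28-KO 60 (79.2%) and 58 of 71 of Trim28-KO 73 (81.7%). At least 3 Rorb UMIs were found in 16, 18, 11 and 9. The controls thus held a larger share of nuclei without Fezf2 and Bcl11b and with Rorb, and the part of this difference in the results for other genes was not tested. Values are therefore also given for the 184 nuclei with Fezf2 or Bcl11b alone, a subset chosen after the values were seen. In all, 41 of 91 control nuclei and 33 of 167 Trim28-KO nuclei had neither factor at these limits, so the name of a deep-layer neuron is borne out by the summed markers but not nucleus by nucleus.

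**Figure D2:**
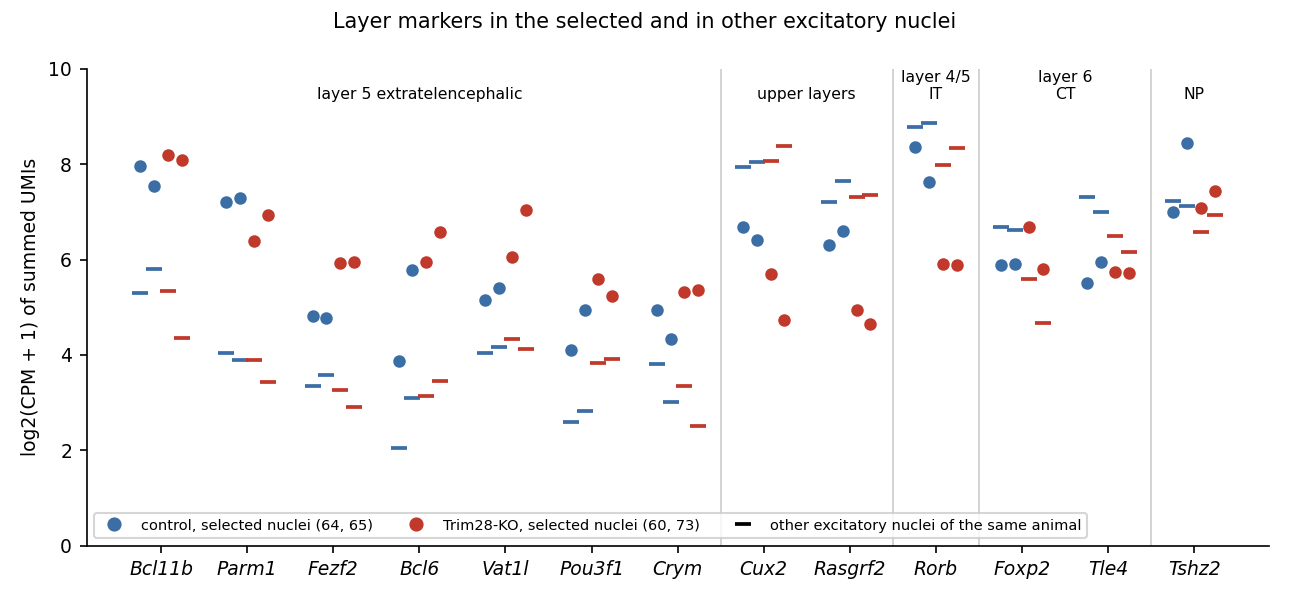
Level of layer markers in log2(CPM + 1) of the UMIs summed over nuclei, with points for the Chst8/Trpc7/Npr3 nuclei of each animal (control 64 and 65 blue, Trim28-KO 60 and 73 red) and dashes for the other excitatory nuclei of the same animal (IT, intratelencephalic; CT, corticothalamic; NP, near-projecting). The points of Bcl11b, Parm1, Fezf2, Bcl6, Vat1l, Pou3f1 and Crym lie above the dashes in all 4 animals, and the red points of Cux2, Rasgrf2 and Rorb lie below the blue ones.

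Markers of glia and vessels were low in the chosen nuclei. Those of inhibitory and corticothalamic neurons had larger sums. The inhibitory sum was above that of other excitatory nuclei in both controls and below it in both Trim28-KO animals. The corticothalamic sum was above that of other excitatory nuclei in Trim28-KO 60 alone. Summed over their lists, the 5 astrocyte markers were at 4.24 to 22.3 CPM, the oligodendrocyte markers at 23.4 to 59.4 CPM, the microglial markers at 23.3 to 45.9 CPM and the endothelial and meningeal markers at 3.93 to 5.30 CPM, against 16.2 to 17.9, 28.0 to 78.6, 32.5 to 53.5 and 2.39 to 3.44 CPM in other excitatory nuclei. Layer 6b markers were at 1.24 to 3.18 CPM and layer 6 intratelencephalic markers at 0 to 14.8 CPM. The 8 inhibitory markers were at 320, 122, 143 and 158 CPM, against 102, 105, 170 and 165 CPM in other excitatory nuclei. In control 64 the sum of the chosen nuclei was led by Adarb2, a gene of one class of interneurons, with 135 of its 138 UMIs in 1 nucleus. The near-projecting marker Tshz2 was at 127, 349, 135 and 173 CPM. The 4 near-projecting markers summed to 129, 353, 138 and 175 CPM, against 160, 144, 101 and 130 CPM in other excitatory nuclei. At least 3 Tshz2 UMIs were found in 7.5, 23.5, 14.6 and 23.9% of the chosen nuclei, against 8.32, 7.11, 5.29 and 6.67% of other excitatory nuclei. The corticothalamic markers were at 595, 649, 548 and 439 CPM in sum, against 757, 811, 541 and 445 CPM in other excitatory nuclei.

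In Trim28-KO, genes with no or almost no UMIs in controls, such as She and Gm20711, were found in these nuclei, and Tmem132d, Lsamp, Rorb and other genes of adhesion and of layers were lower. Of 9589 genes tested with edgeR's quasi-likelihood test on UMIs summed per animal, 475 (4.95%) had a Benjamini-Hochberg adjusted p under 0.05, 209 higher (2.18%) and 266 lower (2.77%) in Trim28-KO. All 475 had both Trim28-KO animals on one side of both controls, which was also true, in one direction or the other, of 26.7% (above) and 21.8% (below) of all genes tested. The calls rest on few libraries: with Trim28-KO 73 left out 1 gene, Gm20711, was called, with Trim28-KO 60 left out 154, and with control 64 left out 859. In the nuclei with Fezf2 or Bcl11b, 59 of 8747 genes (0.675%) were called, 30 higher and 29 lower, 55 of them among the 475. The 436 genes of the 475 that were tested there had a median log2 fold change of 1.01 for those higher and -0.72 for those lower, against 1.07 and -0.93 in all chosen nuclei. Low counts of markers of other cell types were common, and 174 of the 258 nuclei held 3 or more UMIs of markers of inhibitory neurons, astrocytes, oligodendrocytes, their progenitors or microglia (75, 60.8, 66.7 and 69.0% by animal), against 57.9, 43.8, 52.2 and 52.0% of the other excitatory nuclei, with the deepest 1% of excitatory nuclei counted in. Lamp5, which upper-layer excitatory neurons also express, gave 39.95% of these UMIs, and Adarb2 15.2%. In the 84 nuclei left without them (10, 20, 32 and 22), 6 of 5683 genes (0.106%) were called, among them Gm20711 and Tmem132d, and 651 had an unadjusted p under 0.05. The 374 genes of the 475 that were tested there had a median log2 fold change of 0.90 for those higher and -0.78 for those lower, against 0.99 and -0.88 in all chosen nuclei. The part of these markers in the calls was not tested.

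**Figure D3:**
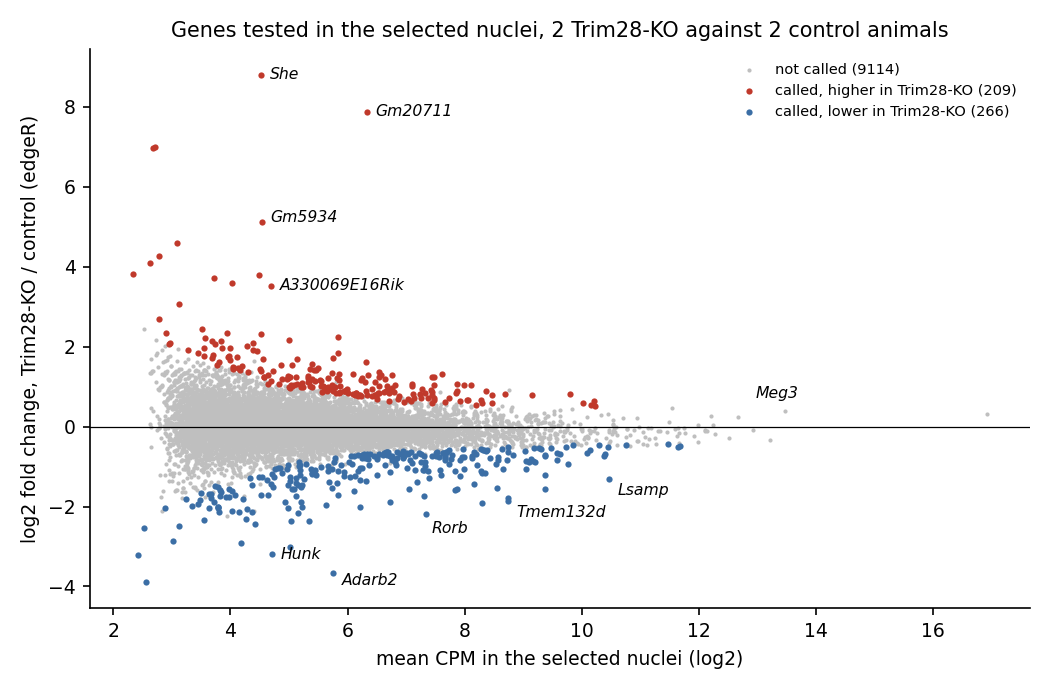
Log2 fold change between Trim28-KO and control (edgeR) against the mean level in the Chst8/Trpc7/Npr3 nuclei (CPM, log2 axis) for the 9589 genes tested, with the 209 genes called higher in red, the 266 called lower in blue and the others in grey. She and Gm20711 stand at the top, and Adarb2 and Hunk among the lowest called genes.

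She rose from 0 UMIs in both controls. It encodes an SH2-domain adaptor protein on chromosome 3 (GRCm38, 89831370 to 89858834, plus strand) and had 0, 0, 89 and 56 UMIs, or 0, 0, 50.02 and 42.2 CPM, in the Chst8/Trpc7/Npr3 nuclei. Both controls were at 0, and against a floor of 3 UMIs in each control (a mean of 3.45 CPM) the Trim28-KO mean was at least 13.4-fold higher (adjusted p = 3.04e-06). The UMIs came from 21 of 96 and 13 of 71 nuclei (21.9 and 18.3%), with up to 21 and 9 in 1 nucleus. In the same animals 5.07 and 2.83% of other excitatory nuclei and 0.294 and 0.275% of inhibitory nuclei, whose lineage Emx1-Cre does not reach, had a She UMI, at median depths of 8818 and 8733 UMIs in the inhibitory nuclei. In other excitatory nuclei She was at 11.6 and 7.57 CPM in Trim28-KO, where it was called too (adjusted p = 0.000487), and in bulk cortex it was not called (log2 fold change 0.18, adjusted p = 0.941). In upper-layer nuclei (defined further on) She was at 0, 0, 4.79 and 0 CPM, too few UMIs for a test there, and in deep-layer Foxp2 nuclei at 0, 0, 13.2 and 8.77 CPM, where it was called higher (adjusted p = 0.0181).

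Gm20711 rose from a level near 0. It had 1, 0, 334 and 177 UMIs (1.24, 0, 188 and 133 CPM), a ratio of 288 between the genotypes with a counting interval of 51.4 to 11384 (adjusted p = 4.07e-09). It was found in 46.9 and 45.1% of the Trim28-KO nuclei, in 26.6 and 18.8% of their other excitatory nuclei and in 1.47 and 1.10% of their inhibitory nuclei. In Trim28-KO animals Gm20711 was at 311 and 361 CPM in deep-layer Foxp2 nuclei and at 26.6 and 5.04 CPM in upper-layer nuclei. In bulk cortex it was at 0.254, 0.109 and 0.266 CPM in controls and 5.39, 3.77 and 6.33 CPM in Trim28-KO (log2 fold change 4.51, adjusted p = 1.23e-05).

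The other genes with large rises had few UMIs in controls. Hoga1, a mitochondrial enzyme of hydroxyproline breakdown, had 0, 0, 25 and 16 UMIs (at least 3.78-fold higher, adjusted p = 0.00176), and Cgnl1, a junction protein, 0, 0, 24 and 16 (at least 3.70-fold higher, adjusted p = 0.00191). Cgnl1 came from 9 and 3 nuclei, with 12 of the 16 UMIs of Trim28-KO 73 in 1 of them. Gm5934 had 2, 0, 59 and 76 UMIs, spread over 44 and 37 Trim28-KO nuclei (ratio 38.0, counting interval 10.3 to 317). The lincRNA Gm13016 had 1, 0, 29 and 22 UMIs (ratio 28.7, interval 4.93 to 1156), Gm13251 had 0, 1, 23 and 18 (ratio 23.1, interval 3.92 to 934) and Tcfl5, a basic helix-loop-helix transcription factor gene, 0, 1, 18 and 12 (ratio 16.9, interval 2.81 to 689). Gm13016, Gm13251, Tcfl5, Hoga1 and the lincRNA 2410018L13Rik were also called higher in bulk cortex, with log2 fold changes of 4.77, 3.41, 4.29, 3.10 and 4.08.

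2410018L13Rik, on chromosome 12 (22953997 to 23010284, minus strand), was at 0, 5.30, 36.0 and 48.2 CPM in the Chst8/Trpc7/Npr3 nuclei (log2 fold change 3.80, SE 0.53, adjusted p = 0.00016). The lincRNA A330069E16Rik, named after its values were seen, was at 4.97, 3.18, 53.4 and 42.2 CPM (3.53, SE 0.41, adjusted p = 1.98e-05). Both genes were called in the nuclei with Fezf2 or Bcl11b and in other excitatory nuclei. Cbfb, the partner subunit of RUNX factors, had 0, 1, 19 and 17 UMIs (ratio 20.3, interval 3.41 to 822.4) and Dnase1l3, a secreted DNase, 3, 0, 39 and 36 (ratio 14.1, interval 4.63 to 69.8). Cbfb was not near 0 in other control neurons. In other excitatory nuclei it was at 12.4, 12.9, 24.1 and 22.0 CPM (log2 fold change 0.82), against 0, 1.06, 10.7 and 12.8 CPM in the chosen nuclei. In bulk cortex Cbfb was not called (0.28, adjusted p = 0.506). RP23-17C12.1 had 1, 3, 27 and 61 UMIs, of which 21 and 24 lay in 1 nucleus of each Trim28-KO animal. Gm5934, Gm13251 and Gm15319 belong to families of similar genes, so their UMIs may be shared with copies.

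**Figure D4:**
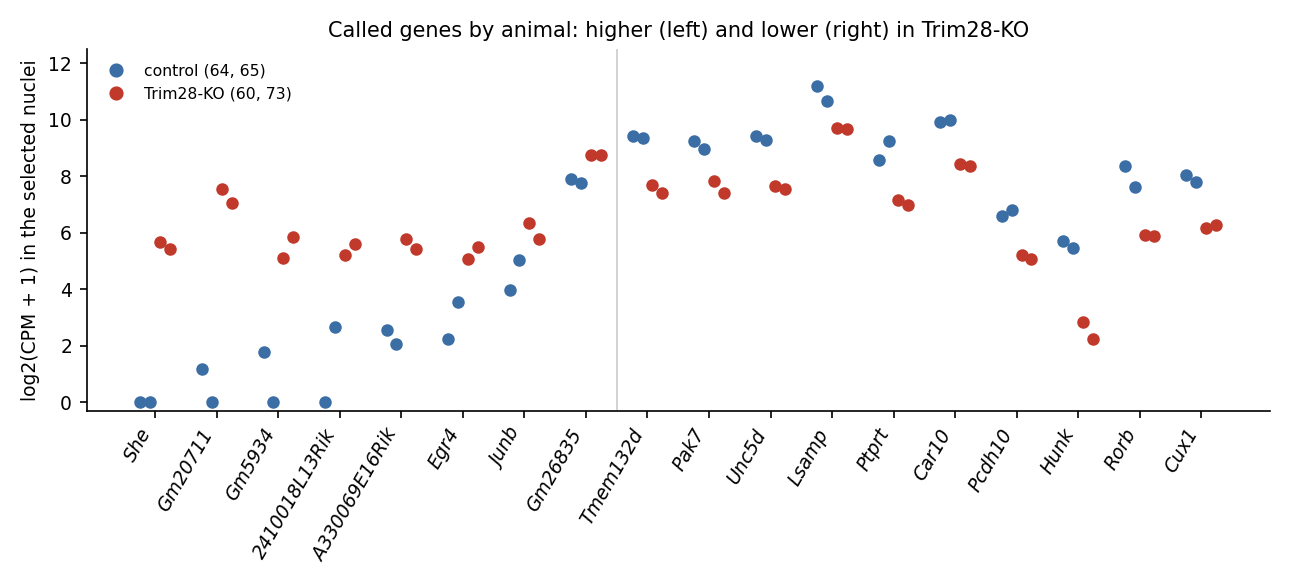
Level in log2(CPM + 1) in the Chst8/Trpc7/Npr3 nuclei of each animal (control 64 and 65 blue, Trim28-KO 60 and 73 red) for 18 called genes, those higher in Trim28-KO on the left and those lower on the right. The red points lie on one side of the blue points for every gene shown, and She is at 0 in both controls.

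Genes named by the study in excitatory neurons were chosen there on these same samples, so their direction here is no independent evidence. Of the 10, 6 fell and 2 rose. Tmem132d, an adhesion-like membrane protein, was at 684, 651, 205 and 171 CPM and fell by 1.85 on the log2 scale (SE 0.16, adjusted p = 5.62e-07). It fell also in the nuclei with Fezf2 or Bcl11b (-1.71, adjusted p = 0.000537) and in bulk cortex (-0.77, adjusted p = 0.00205). Pak7, a p21-activated kinase, was at 616, 497, 225 and 168 CPM (-1.52, SE 0.17, adjusted p = 1.61e-05) and Hecw2, a ubiquitin ligase, at 704, 770, 422 and 408 CPM (-0.85, SE 0.14, adjusted p = 0.00104), both of them called in the nuclei with Fezf2 or Bcl11b. Hs3st4, which sulfates heparan sulfate, Cdh18 and Sgcz fell by 1.09, 1.15 and 0.51, and in the nuclei with Fezf2 or Bcl11b they were at -0.84, -0.96 and -0.60 and not called (adjusted p = 0.0602, 0.0784 and 0.0848). The lincRNA Gm26835 rose from 237 and 218 to 437 and 429 CPM (0.90, SE 0.15, adjusted p = 0.00135) and the phosphodiesterase Pde10a by 0.63 (adjusted p = 0.0254), and neither was called in that subset (0.69, adjusted p = 0.11, and 0.62, adjusted p = 0.152). Meg3, an imprinted noncoding RNA, and Homer1 were not called (0.39, adjusted p = 0.054, and 0.93, adjusted p = 0.0592).

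Adhesion genes were the list with the most calls. Of 46 cadherin, contactin, neurexin and related genes tested, 13 fell and 0 rose (28.3% called, against 4.95% of all genes), with a median log2 fold change of -0.25 against 0.01 over all genes. Lsamp, the limbic system-associated membrane protein, was at 2379, 1624, 841.98 and 815 CPM (-1.30, SE 0.16, adjusted p = 5.31e-05), and Pcdh10, a protocadherin, at 95.6, 110, 36.5 and 32.4 CPM (-1.60, SE 0.21, adjusted p = 0.000101). Cdh9 went from 18.6 and 53.0 to 6.18 and 7.54 CPM (-2.44, adjusted p = 0.0023). Cntnap5b, Cntnap4, Cdh12, Cdh18, Cdh10, Pcdh15, Pcdh7, Negr1, Sgcz and Tmem132d made up the other calls, between -1.85 and -0.51. Of the 13, Cdh18, Sgcz and Tmem132d were also named by the study on these same samples, so their part of the count is no independent evidence. The members with the highest levels, Opcml, Nrxn3, Lrrtm4 and Nlgn1, had changes of -0.11, -0.08, 0.26 and 0.03 and were not called. In the nuclei with Fezf2 or Bcl11b 4 fell, namely Cdh9, Tmem132d, Lsamp and Pcdh10, and the median was -0.26. The list's median in other excitatory nuclei was also -0.26.

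Of the layer 5 extratelencephalic markers, 11 were tested, 2 rose and 1 fell (27.3%, against 4.95% of all genes), with a median log2 fold change of 0.68 against 0.01 over all genes. Vat1l, used as a marker of these neurons, rose from 34.8 and 41.4 to 65.2 and 131 CPM (1.31, SE 0.29, adjusted p = 0.0108) and Fezf2 by 1.14 (SE 0.25, adjusted p = 0.0106). The prostaglandin transporter gene Slco2a1 fell from 24.8 and 38.2 to 10.1 and 4.52 CPM (-2.07, SE 0.40, adjusted p = 0.00383). Bcl11b was not called (0.36, adjusted p = 0.258), nor was Parm1 (-0.61, adjusted p = 0.0738). In the nuclei with Fezf2 or Bcl11b, which were picked on 2 of these genes, the median of the list was -0.02, 0 rose, and Slco2a1 (-2.60) and Parm1 (-1.20) fell. The list's median in other excitatory nuclei was -0.36.

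Upper-layer markers and Rorb were lower in the Trim28-KO nuclei. Of 5 upper-layer markers tested, 4 were called (80%, against 4.95% of all genes), with a median of -1.56 against 0.01 over all genes. The fifth was Otof or Ccbe1, which the choice itself kept together below 3 UMIs in every nucleus. Nuclei richer in Otof and Ccbe1 were thus left out before this list was read. The transcription factor gene Cux2 (102, 83.8, 51.1 and 25.6 CPM, -1.25), Rasgrf2 (78.2, 95.4, 29.8 and 24.1 CPM, -1.70), the calcium-binding Calb1 (-2.15) and Stard8 (-1.56) fell, with adjusted p from 0.000143 to 0.0217. Rorb, the one called of 4 markers tested of layer 4 and 5 intratelencephalic neurons, was at 330, 197, 59.0 and 58.0 CPM (-2.19, SE 0.22, adjusted p = 3.27e-06). In other excitatory nuclei Rorb was called lower too (-0.70, adjusted p = 0.0169), while the median of the upper-layer list there was 0.25. The related factor Cux1, named after its values were seen, was at 262, 222, 70.3 and 76.9 CPM (-1.74, adjusted p = 4.14e-06). In the nuclei with Fezf2 or Bcl11b Rorb fell by 1.17 (adjusted p = 0.0405), while Cux1 (-0.26, adjusted p = 0.693), Cux2 (-1.03, adjusted p = 0.528) and Rasgrf2 (-1.19, adjusted p = 0.298) were not called and Calb1 and Stard8 passed no filter. None of the 3 corticothalamic markers tested (Foxp2, Garnl3, Tle4) nor Tshz2 was called.

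The largest falls were spread over genes of differing prevalence. Hunk, a kinase gene of chromosome 16 (90386013 to 90499553, plus strand), was at 50.9, 43.5, 6.18 and 3.77 CPM (-3.20, SE 0.37, adjusted p = 2.16e-05), found in 21 and 23 control nuclei and in 8 and 2 Trim28-KO nuclei. It was lower in other excitatory nuclei (-2.59, adjusted p = 0.000176) and in bulk cortex (-0.64, adjusted p = 0.0244) as well, and in the nuclei with Fezf2 or Bcl11b it was at -2.79 and not called (adjusted p = 0.105). Rassf3 was at 81.9, 54.1, 16.9 and 9.04 CPM (-2.35, adjusted p = 0.000105) and Thsd7b at 26.1, 90.1, 9.56 and 4.52 CPM (-3.02, adjusted p = 0.00036), both called in the nuclei with Fezf2 or Bcl11b. The plexin gene Plxnd1 (41.0, 23.3, 3.93 and 4.52 CPM) and Pld5 (55.9, 53.0, 6.74 and 15.8 CPM) fell too. In the nuclei with Fezf2 or Bcl11b Plxnd1 was at 0, 18.9, 1.35 and 4.49 CPM, and Pld5 at 2.57, 3.43, 4.04 and 1.80 CPM, where the genotypes overlapped.

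Ccdc3, Gm12068, Fap, Gm15319 and Fat1 also fell, from 9.54 to 19.1 CPM in controls to 0 to 4.52 CPM in Trim28-KO. For Ccdc3 (10, 9, 0 and 2 UMIs) the ratio between the genotypes was 16.9 (counting interval 4.07 to 149) and for Gm12068 (8, 9, 1 and 2 UMIs) 10.1 (2.91 to 53.6). Adarb2 was at 171, 27.6, 6.18 and 9.80 CPM (-3.66, adjusted p = 0.000617), and with control 64, whose level came almost wholly from the nucleus named above, left out it was lower by -1.83 (adjusted p = 0.0032).

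The 10 genes that were called in all chosen nuclei and in each of 4 of the 5 narrower choices (with Fezf2 or Bcl11b, Rorb under 3 UMIs, a sum of at least 6 selecting UMIs, and the rule on thinned nuclei) were named after their values were seen. They were Ptprt, Ptchd4, Tmem132d, Pcdh10, Car10, Zmat4 and Nyap2, which fell, and Spred1, Gm20711 and She, which rose. Under the fifth, without the nuclei holding markers of other cell types, Gm20711 and Tmem132d of these 10 were called. Ptprt, a receptor tyrosine phosphatase, was at 386, 609, 144 and 126 CPM (-1.91, and -1.0 to -2.0 in these 4 choices). Car10, a carbonic anhydrase-related secreted protein, was at 967, 1020, 349 and 331 CPM (-1.57, -1.26 to -2.12). Ptchd4, a patched-domain protein, was at 174, 156, 38.2 and 53.5 CPM (-1.89, -1.60 to -2.40), and Spred1, an inhibitor of Ras signalling, at 80.7, 127, 242 and 266 CPM (1.25, 1.01 to 1.13).

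**Figure D5:**
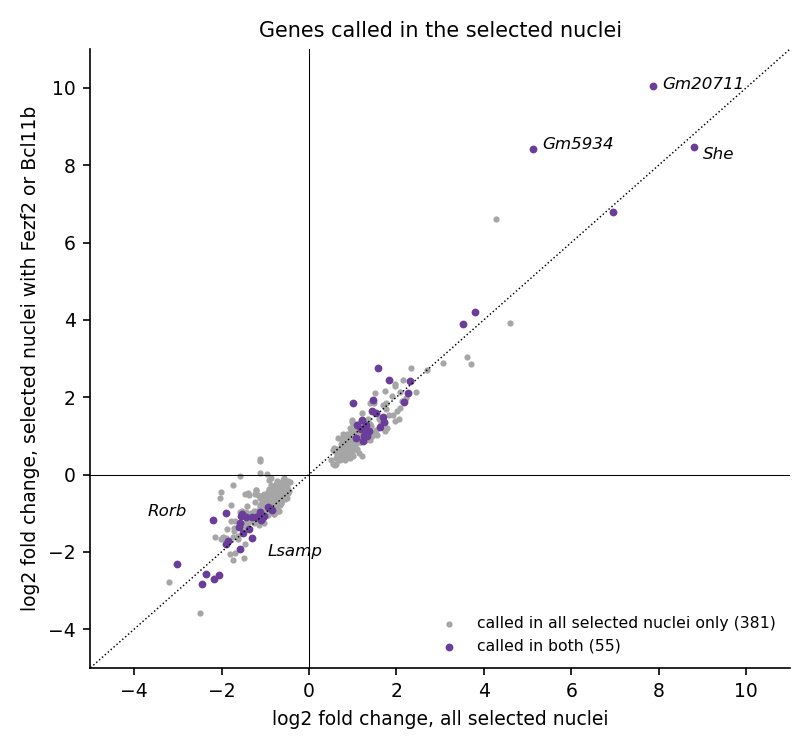
Log2 fold change between Trim28-KO and control of the genes called in the Chst8/Trpc7/Npr3 nuclei (horizontal axis) against the same value in the nuclei among them with Fezf2 or Bcl11b (vertical axis), for the 436 genes tested in both, with equality as a dotted line and the 55 genes called in both in purple. Most points lie on the same side of 0 on both axes, and Rorb lies nearer 0 on the vertical axis.

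Among ion channels, 7 of 31 tested were called (22.6%, against 4.95% of all genes), 6 of them lower. The sodium channels Scn1a (433, 510, 328 and 329 CPM, -0.55) and Scn2a1 (404, 363, 270 and 252 CPM, -0.58), the N-type calcium channel Cacna1b (-0.60), the potassium channel Kcnc2 (-1.12) and the cation channels Trpc6 (-1.21) and Trpm3 (246, 149, 61.8 and 75.4 CPM, -1.55) fell. Trpm3 was the member called in the nuclei with Fezf2 or Bcl11b (-1.06, adjusted p = 0.046), where Kcnc2 was at 0.03 (adjusted p = 0.984). The channels with the highest levels, Kcnq5, Kcnma1 and Kcnd2, were at -0.45, -0.46 and -0.18 and were not called. The median of the list was -0.18 (-0.15 in other excitatory nuclei), against 0.01 over all genes.

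Of 30 glutamate and GABA receptor genes tested, 4 fell and 0 rose (13.3%, against 4.95% of all genes), with a median of -0.11 against 0.01. The list's median in other excitatory nuclei was -0.27. Among the 4 were Gria4, an AMPA receptor subunit (824, 821, 540 and 464 CPM, -0.74, adjusted p = 0.00358), Grm3, a metabotropic receptor (447, 334, 231 and 173 CPM, -0.97, adjusted p = 0.00242), and the GABA-A subunit Gabra4 (-0.80). None of the 4 was called in the nuclei with Fezf2 or Bcl11b, and Gria2, Grin2a, Grm5 and Grm7, the most abundant members, were not called.

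Axon guidance genes gave 3 falls among 25 tested (12%, against 4.95% of all genes), with a median of -0.20 against 0.01. In other excitatory nuclei the median of this list was -0.30. The netrin receptor Dcc was at 413, 288, 251 and 158 CPM (-0.80, adjusted p = 0.0243) and the netrin receptor Unc5d at 693, 627, 201 and 188 CPM (-1.79, SE 0.15, adjusted p = 5.62e-07). Plxnd1, described above, was the third. Unc5d was not called in the nuclei with Fezf2 or Bcl11b (77.1, 177, 104 and 45.8 CPM, -0.80, adjusted p = 0.322). There its level in controls was 77.1 and 177 CPM, against 693 and 627 CPM over all chosen nuclei of these animals.

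Of 11 genes induced by neuronal activity that were tested, 4 rose and 0 fell (36.4%, against 4.95% of all genes). They were Egr4 (3.72, 10.6, 32.6 and 44.5 CPM, 2.32, adjusted p = 0.00158), Junb (14.9, 31.8, 79.8 and 54.3 CPM, 1.48, adjusted p = 0.00523), Egr1 (1.24, adjusted p = 0.0451) and the growth factor gene Bdnf (13.7, 14.8, 37.1 and 34.7 CPM, 1.30, adjusted p = 0.0186). The median of the list was 1.24 (1.05 in other excitatory nuclei), against 0.01 over all genes. The summed level of the 14 genes was 222, 744, 1028 and 931 CPM, so control 65 stood nearer to the Trim28-KO animals than to control 64, and in other excitatory nuclei it was 248, 747, 1038 and 990 CPM. With control 64 left out, Egr1 was not called (0.63, adjusted p = 0.233), while Egr4 (1.81), Junb (1.08) and Bdnf (1.25) were. Egr4 and Junb were called in the nuclei with Fezf2 or Bcl11b, and Egr1 (1.08, adjusted p = 0.192) and Bdnf (0.89, adjusted p = 0.294) were not.

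The remaining lists had few calls each, and several were short, so shares are set beside the 4.95% of all genes called. Among 8 imprinted genes tested, Snrpn (63.3, 35, 12.4 and 21.9 CPM, -1.57, adjusted p = 0.00786) and Kcnq1ot1 (593, 668, 436 and 400 CPM, -0.62, adjusted p = 0.0147) fell (25%). The neurofilament-related Ina rose from 55.9 and 60.4 to 102 and 104 CPM (0.80, adjusted p = 0.0194), while Nefl, Nefm and Nefh were not called. Ina made up 25% of the 4 genes tested of its list. Of 58 clustered protocadherin entries only Pcdha1 had UMIs, with 3 in controls and 48 in Trim28-KO (ratio 9.01, interval 2.90 to 45.2, adjusted p = 0.00654). None of 18 partners of Trim28 and none of 3 interferon-stimulated genes tested was called by edgeR. Of genes raised elsewhere in the series, She alone was tested. Draxin was at 0, 0, 5.62 and 7.54 CPM. Gt(ROSA)26Sor, the locus of the reporter allele in this cross, rose from 18.6 and 14.8 to 49.5 and 49.0 CPM (1.54, adjusted p = 0.00295) and was named after its values were seen. It was also higher in other excitatory nuclei (1.16, adjusted p = 0.00562), and in bulk cortex it was not called (0.06, adjusted p = 0.986). Of 61 ribosomal protein genes tested, 1 rose (1.64%, median 0.43, summed level 1035, 1004, 1515 and 1179 CPM), and of 9 mitochondrial genes 1 rose (11.1%, median 0.71, summed level 509, 852, 1592 and 711 CPM).

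The genotype effect was compared with that in 720 upper-layer nuclei of the same animals (the same gate, Otof and Ccbe1 together at least 3 UMIs and the selecting genes below 3). Of 11662 genes tested for a class by genotype interaction, 74 (0.635%) were called, 41 with the effect higher in the Chst8/Trpc7/Npr3 nuclei and 33 with it lower. Of the 33, 26 were called lower in the Chst8/Trpc7/Npr3 nuclei. Of the 41, 19 were called lower in the upper-layer nuclei and 8 called higher in the Chst8/Trpc7/Npr3 nuclei. The effect on Foxp2 was 0.42 here and -2.18 in upper-layer nuclei, where it went from 17.8 and 22.1 to 5.06 and 3.96 CPM (difference 2.62, SE 0.33). Cthrc1 (2.41), the semaphorin Sema3e (2.38) and Cep112 (2.35) differed in the same way, having fallen in the upper-layer nuclei. Armc3 (2.37) was called higher in the Chst8/Trpc7/Npr3 nuclei, at 9.93, 5.30, 28.1 and 34.7 CPM. Irgm1, an interferon-induced GTPase, was at 8.69, 10.6, 0.562 and 0 CPM here and at 0.720 to 5.32 CPM in upper-layer nuclei (difference -5.90, SE 1.25). The differences of A830019P07Rik, Adarb2, Pld5 and Plxnd1 were -3.09, -2.97, -2.45 and -2.41. With control 64 left out, those of A830019P07Rik (-2.36, adjusted p = 0.271), Adarb2 (-1.03, adjusted p = 0.532) and Plxnd1 (-1.61, adjusted p = 0.115) were not called, and in control 64 nearly all Adarb2 UMIs lay in 1 nucleus. In the nuclei with Fezf2 or Bcl11b none of these 5 was called, and the differences were -5.98 for Irgm1 (adjusted p = 0.0877), -1.34 for A830019P07Rik (adjusted p = 0.852), -0.65 for Adarb2 (adjusted p = 0.895), -0.06 for Pld5 (adjusted p = 0.996) and -1.41 for Plxnd1 (adjusted p = 0.747). Armc3 (1.92, adjusted p = 0.356), Sema3e (1.85, adjusted p = 0.155) and Cthrc1 (2.35, adjusted p = 0.180) were not called in that subset either. With control 64 left out, the differences of Armc3 and Cthrc1 were 1.99 and 2.17. Of the 10 named differences, those of Pld5, Cep112 and Foxp2 were called without Trim28-KO 73 and that of Sema3e without Trim28-KO 60.

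Of the 74 genes, 8 were also called when the nuclei with Fezf2 or Bcl11b stood for the class, where 11 were called in all. They were Foxp2, Cep112, Grm8, Tox, Hs6st2, Epha6, Lsamp and Adrb1, named after their values were seen. The metabotropic receptor gene Grm8 changed by -0.34 in the Chst8/Trpc7/Npr3 nuclei and by -2.57 in upper-layer nuclei, where it went from 276 and 333 to 65.7 and 39.9 CPM. The ephrin receptor gene Epha6 changed by -0.15 and -1.26. Lsamp had the larger fall in the Chst8/Trpc7/Npr3 nuclei, at -1.30 against -0.69. Vat1l was among the 74 and was called higher in the Chst8/Trpc7/Npr3 nuclei.

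Against 435 deep-layer nuclei with at least 3 Foxp2 UMIs, 11 of 10522 genes (0.105%) were called. This class was picked on a gene that is itself lower in other excitatory nuclei of Trim28-KO (-1.53, adjusted p = 0.00911), and it held 150, 135, 98 and 52 nuclei. The effect was lower in the Chst8/Trpc7/Npr3 nuclei for 10 of the 11, all of them called lower there, and the largest differences were those of Rasgrf2 (-3.43), Pld5 (-3.29), Cux2 (-2.63), Unc5d (-2.57) and the kinase Camk2d (-1.99). A230006K03Rik fell in the Foxp2 nuclei (difference 1.11, SE 0.19). With the nuclei with Fezf2 or Bcl11b as the class, edgeR called 0 genes, with 644 at an unadjusted p under 0.05.

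Bulk RNA of the cortex gave a second readout from 3 Trim28-KO (60, 73 and 76) and 3 control animals (64, 65 and 77), of which 76 and 77 gave no nuclei. The paper's methods describe the controls of this cross as Cre carriers with a single floxed allele. Its legend for a cortex comparison names Cre-negative littermates instead, so the control genotype is given in differing ways. Fewer cells of a type and less RNA per cell cannot be told apart in such samples. Of 16271 genes tested, 142 (0.873%) were called higher and 81 (0.498%) lower. Animals 60, 73, 64 and 65 are shared between the assays, so the bulk values given beside the genes above are not independent of the nuclei. Tmem132d, Hunk and Ccdc3 (-1.53, adjusted p = 0.00667) were lower in bulk, and Gm20711, Gm13016, 2410018L13Rik, Tcfl5, Gm13251, Hoga1 and Pcdha1 (3.55, adjusted p = 5.41e-05) were higher. The bulk levels of Lsamp (-0.17), Unc5d (-0.10), Car10 (-0.24), Rorb (-0.27) and Bcl11b (0.14) were not called.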

How the data were processed

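Nuclei of mouse cortex were sorted, and 8500 per sample were loaded for 10x 3′ single-nucleus RNA-seq. The UMI counts per gene and nucleus were deposited by the authors as filtered matrices (Cell Ranger 3.0, pre-mRNA mm10 reference). Bulk read counts per gene were deposited by the authors too (stranded polyA libraries, STAR 2.6.0, GRCm38.p6, GENCODE vM19, featureCounts from Subread 1.6.3). Neither was normalized. The study's own cell labels were not used here, and the authors tested over cells, while UMIs were summed per animal here, because cells are not replicates.

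Nuclei were chosen by the rule in the report, counts were summed per animal, genes were filtered with filterByExpr, scaled by TMM and tested with edgeR's quasi-likelihood test, with Benjamini-Hochberg adjustment over all genes tested (threshold 0.05). SE is the standard error of the log2 fold change. CPM values are UMIs scaled to the same total for each class and animal (for bulk, reads). Class differences were tested as a class by genotype interaction. Shares and medians were tested by an exact permutation test over animals. Counts of 0 were bounded with a floor of 3 UMIs in each animal of the group (the mean of these in CPM). Other small counts were given with a conditional exact 95% counting interval, and both cover counting error only. The scripts were tested on simulated data. In the order of the report, a library held 29743503, 29127314, 33109085 and 33524892 UMIs, of which the chosen nuclei held 805453, 943150, 1779140 and 1327096, and the bulk samples held 16748967 to 25345083 reads in genes.

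Named genes were Trim28 and the selecting genes, the genes the study named in excitatory neurons, the 12 called genes with the largest change in each direction, the called and up to 4 most abundant members of each gene list, the 15 genes set apart from other excitatory nuclei, and the 5 called genes with the largest difference in each direction of each interaction. Some genes that meet this rule are not reported here. The members and lists were chosen with earlier results of these data known. The subsets with Fezf2 or Bcl11b, with Rorb under 3 UMIs and with the excitatory gate at 1 UMI were chosen after seeing the data. Gene positions are from GENCODE vM21 (GRCm38), in which 9570 of 9589 tested genes were found. All columns belonged to a sample (0 did not). Software was Python 3.11.15, pandas 2.3.3, numpy 2.4.6, scipy 1.17.1, matplotlib 3.10.9, R 4.3.3, edgeR 4.0.16 and, as an alternative, DESeq2 1.42.0.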

Additional observations from a re-analysis of the deposited data

Results flagged for a closer look

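The effect of Trim28 deletion differed between the Chst8/Trpc7/Npr3 nuclei and upper-layer nuclei of the same animals for 74 genes by the interaction test. The differences in log2 fold change (Chst8/Trpc7/Npr3 minus upper-layer) furthest below 0 were those of Irgm1 (-5.90), A830019P07Rik (-3.09), Adarb2 (-2.97), Pld5 (-2.45) and Plxnd1 (-2.41). With control 64 left out A830019P07Rik (-2.36), Adarb2 (-1.03) and Plxnd1 (-1.61) were not called, and in the nuclei with Fezf2 or Bcl11b none of the 5 was (Adarb2 at -0.65, Pld5 at -0.06, A830019P07Rik at -1.34). Those furthest above 0 were Foxp2 (2.62), Cthrc1 (2.41), Sema3e (2.38), Armc3 (2.37) and Cep112 (2.35). Of these, Cthrc1 (2.35), Sema3e (1.85) and Armc3 (1.92) were not called in the nuclei with Fezf2 or Bcl11b.

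Against Foxp2 nuclei the effect differed for 11 genes. The differences furthest from 0 were Rasgrf2 (-3.43), Pld5 (-3.29), Cux2 (-2.63), Unc5d (-2.57) and Camk2d (-1.99) below it and A230006K03Rik (1.11) above it. In control animals Rasgrf2, Pld5, Cux2 and Unc5d were higher over all Chst8/Trpc7/Npr3 nuclei than in those with Fezf2 or Bcl11b, and the part of this makeup in the differences was not tested.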

How the results depend on the processing

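The 475 genes called in the Chst8/Trpc7/Npr3 nuclei became 134 with DESeq2 (which gave no adjusted p for 2045 genes), 717 with no filter on low counts, 35 with a rule sum of at least 6, 65 with the rule on thinned nuclei, 6 without mixed nuclei (those with 3 or more UMIs of markers of inhibitory neurons, glia, progenitors or microglia, or above the 99th percentile of UMIs of excitatory nuclei), 59 with Fezf2 or Bcl11b, 195 with Rorb under 3 UMIs and 1 to 859 with an animal left out. Of the 475, 134 were among the calls of DESeq2, 31 among those at a rule sum of 6, 63 among the thinned, 5 among those without mixed nuclei, 55 with Fezf2 or Bcl11b and 180 with Rorb under 3 UMIs. The share of calls that were higher was 44.0%, against 53.0% with no filter, 32.1% with DESeq2 and 24.6% on thinned nuclei. The 74 genes that differed from upper-layer nuclei became 14 with DESeq2, 171 with no filter, 24 at a rule sum of 6, 11 with Fezf2 or Bcl11b and 19 to 174 with an animal left out. The 11 that differed from Foxp2 nuclei became 3, 131, 1, 0 and 14 to 86 under the same settings. The 223 genes called in bulk cortex became 621 with no filter and 104 to 387 with an animal left out. The cause of these moves was not tested, except that the narrower choices hold fewer nuclei.

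The difference in median UMIs per nucleus (-32.5) turned positive with a rule sum of 6 (501), without mixed nuclei (2043.75), with Fezf2 or Bcl11b (517.25), with Rorb under 3 UMIs (2244.5) and on thinned nuclei (1008.25), was 120.75 in detected genes, and ran from -883.75 to 818.75 with an animal left out. Changes of sign were also seen for Trpc7 (-0.34 to 0.51 with an animal left out, negative without control 64 or Trim28-KO 73, -0.12 at a rule sum of 6, -0.33 with Fezf2 or Bcl11b) and Npr3 (-0.162 to 0.0865 with an animal left out, positive without Trim28-KO 60, and 0.0724 at a rule sum of 6). At a rule sum of 6 Pcdh15 was at 0.33 and the difference of Plxnd1 from upper-layer nuclei at 4.96. Without mixed nuclei Cux2 was at 1.10 and Gabra4 at 0.0201, and with Fezf2 or Bcl11b Kcnc2 was at 0.0286. The share of Chst8/Trpc7/Npr3 nuclei stayed higher in Trim28-KO under every setting tried (0.767 to 1.99 percentage points, 0.0207 to 1.87 with an animal left out). No paired analysis was possible because the animals of both genotypes share no numbers. With 2 animals per genotype and 40 to 96 nuclei each, a change that was not called may lie below what this depth can show.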
